A study of Mus musculus with 8 samples.

Results

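The enzymes that oxidise, hydrolyse and conjugate drugs, plant compounds, lipids and steroids were followed in mouse distal colon. Members were taken by gene symbol alone: cytochrome P450 genes of families 1 to 4, UDP-glucuronosyltransferases of families 1 and 2, glutathione S-transferases, sulfotransferases and carboxylesterases. The rule found 156 genes among the 55418 symbols of the deposited table. Of these, 75 had enough counts to be tested, 37 had a count but too few for the test (the highest, Cyp2c67, summed to 55.15 counts over all libraries), and 44 had no count.

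Total RNA came from 8 C57BL/6 mice aged 8 to 10 weeks, in 4 groups of 2. The groups were ΔNFκB mice given DSS, ΔNFκB mice left untreated, wild-type (WT) mice given DSS and WT mice left untreated. ΔNFκB is short for NAIL_ΔNFκB, a line in which the NAIL long noncoding RNA locus is altered; which bases differ is not stated in the labels. DSS, dextran sulfate sodium, is a detergent-like sugar polymer that injures the colon lining, and here mice drank it at 3% for 4 days and were returned to water for 4 days. Libraries held 9229637 to 16935724 counts. Levels are given as CPM, the normalised read count scaled to a common library size with TMM factors, in each of the 2 mice of a group, and changes as log2 fold changes ± SE with Benjamini-Hochberg adjusted p from 1 edgeR quasi-likelihood fit of all 17522 genes tested, with 0.05 as the threshold.

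These enzymes work in sequence. Cytochromes P450 add oxygen to a fat-soluble molecule and carboxylesterases split its ester bonds, after which transferases attach glucuronic acid, sulfate or glutathione so that the product dissolves in water and can be pumped out of the cell. The liver holds most of this capacity, but the gut lining expresses its own set, which meets dietary compounds, bile acids and bacterial products first. Several members also act on signalling lipids and hormones, such as arachidonic acid, leukotriene B4, estrogens and cholesterol.

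The groups differed in more than DSS and genotype. Y-linked transcripts summed to 219 to 240 CPM in both ΔNFκB untreated mice and in WT untreated replicate 2, and to at most 0.209 CPM in the other 5 libraries. All DSS mice were thus female, so DSS and sex cannot be told apart in ΔNFκB mice, while WT untreated replicate 1 gives a female untreated mouse in the WT comparison. Gm16685, which general knowledge rather than the labels gives as NAIL in the mouse, was counted at 55 and 86 in ΔNFκB DSS libraries and at 3 and 4 in ΔNFκB untreated ones, against 57 and 126 in WT DSS and 3 and 20 in WT untreated libraries. These counts do not check the labels, since the altered bases are not given. In whole tissue, fewer cells of a type and less RNA per cell cannot be told apart.

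In untreated colon the set was led by transferases. On the scale of CPM per kilobase of exon, WT untreated mice averaged 156 for Gstm1, a mu-class glutathione transferase, 111 for Sult1a1, which sulfates phenols, 101 for Gsto1 of the omega class, 93.4 for Ugt2b34, a glucuronosyltransferase, and 82.5 for Cyp2d34, the highest P450. At the other end Cyp1a1, the classic gene induced through the aryl hydrocarbon receptor, had 2 counts in all and was not tested. Its relative Cyp1b1 had 0.102 and 0 CPM in ΔNFκB DSS mice, 3.08 and 0.407 in ΔNFκB untreated mice, 0.193 and 1.65 in WT DSS mice and 0 and 0.671 in WT untreated mice. Neither DSS effect on Cyp1b1 passed the test in the main fit. The ΔNFκB effect depended on the fit. It passed with DESeq2 (-5.06, adjusted p 0.0432) and with no count filter (-4.80, adjusted p 0.0147), but was 1.16 with the sex term (adjusted p 0.838). Of the ΔNFκB untreated counts, replicate 1 held 39 and replicate 2 held 5.

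Together the 156 members made up 1651 and 1698 CPM in ΔNFκB DSS mice, against 2638 and 3235 CPM in ΔNFκB untreated mice. In WT mice the sums were 1263 and 1205 CPM with DSS, against 3010 and 3708 CPM without. Both DSS groups thus lay below both untreated groups, and the 2 DSS groups did not overlap with each other. In ΔNFκB mice 40 of the 75 tested members fell with DSS and 6 rose, where 19.2% and 16.2% of all genes tested did so; the members' median change was -0.98, against -0.04 over all genes. In WT mice 47 fell and 3 rose, where 18.8% and 17.2% of all genes did so, with a median of -1.33 against 0.00. The members that fell in both genotypes numbered 35, and Ces2f, Cyp4f18 and Gstp3 rose in both.

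Members that fell were counted by family. In ΔNFκB mice 13 of 20 Cyp2 genes fell, as did 6 of 10 carboxylesterases, 5 of 7 sulfotransferases, 8 of 20 glutathione transferases, 3 of 8 Cyp4 genes, 2 of 6 Ugt1 genes and both Ugt2 genes. In WT mice 14 Cyp2 genes fell, with 7 carboxylesterases, 5 sulfotransferases, 13 glutathione transferases, 4 Cyp4 genes, 1 Ugt1 gene and both Ugt2 genes. The Ugt1 count in WT mice, 16.7% of the tested genes, was no higher than the share of all genes. Cyp3a13, the only Cyp3 gene tested, fell in both genotypes, and Cyp1b1, the only Cyp1 gene tested, did not pass the test. Cell type markers moved as well: with DSS, 6 of 12 absorptive colonocyte markers fell and 1 rose in ΔNFκB mice, and 8 fell and 0 rose in WT mice. Their summed level was 2916 and 2862 CPM in ΔNFκB DSS mice and 5230 and 7139 in ΔNFκB untreated mice, against 1990 and 2096 in WT DSS mice and 6024 and 9123 in WT untreated mice. General epithelial markers fell in 0 of 12 cases and rose in 1 in ΔNFκB mice, and fell in 8 and rose in 0 in WT mice. Goblet cell markers fell in 6 of 10 cases and rose in 3 in ΔNFκB mice, and fell in 8 and rose in 1 in WT mice. Smooth muscle markers fell in 8 of 8 cases in both genotypes. The part of these cell types in the members' fall was not tested.

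Leaving out the male WT untreated mouse leaves 1 female mouse as that group. Such a fit cannot separate sex from differences between single mice, and the part of sex in the members' fall was not tested. A sex term in the fit rests on the 2 untreated WT mice, 1 of each sex. It left 25 members lower in ΔNFκB mice and 42 in WT mice. Among all 17522 genes tested it left 1865 and 2385 lower, against 3367 and 3293 without it. Reads that match several genes bear on the set too, since 48 of the 75 tested members had a fractional count in some library. Among the other 27, 14 fell and 1 rose in ΔNFκB mice and 15 fell and 1 rose in WT mice.

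**Figure D1:**
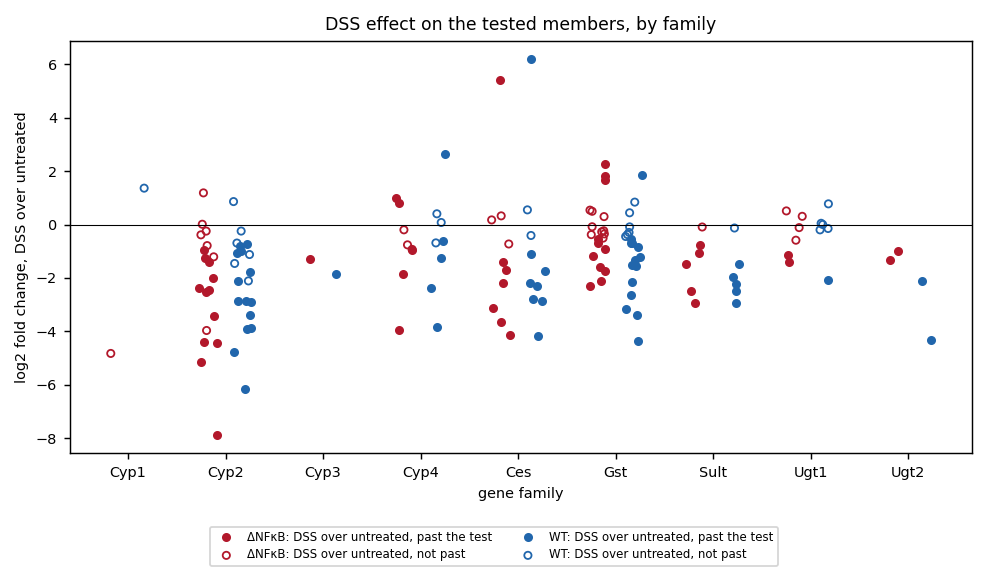
Log2 fold change of DSS over untreated mice for the tested members, grouped by gene family on the horizontal axis, in ΔNFκB (red) and WT (blue) mice, with filled points past the test. Most filled points lie below 0 in every family but Cyp1; Ces2f stands highest in both genotypes, and Cyp2c69 in ΔNFκB mice and Sult1e1 in both are left out because their DSS libraries had no count.

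Among falls past the test, the deepest fitted values in each genotype belonged to Cyp2c genes on chromosome 19. Cyp2c55 (39007019 to 39042693, plus strand, mm10), which oxidises arachidonic and linoleic acid, had 0.205 and 0.206 CPM in ΔNFκB DSS mice, against 44.9 and 55.6 CPM in ΔNFκB untreated mice. In WT mice it had 1.54 and 2.47 CPM with DSS, against 23.4 and 87.9 CPM without. Neither genotype's groups overlapped, and the fall was -7.86 ± 0.90 in ΔNFκB mice (adjusted p 0.000596) and -4.78 ± 0.64 in WT mice (adjusted p 0.00133). The ΔNFκB DSS values were below the floor of 3 counts in a library. The 2 falls differed by -3.08 ± 1.42, which did not pass the test (adjusted p 0.162); with the sex term the difference was -2.42 ± 0.55 and passed (adjusted p 0.0217).

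Cyp2c68 (39688834 to 39741054, minus strand) was the most abundant Cyp2c gene per length over all libraries. It had 6.86 and 10.9 CPM in ΔNFκB DSS mice, against 82.4 and 109 CPM in ΔNFκB untreated mice, a fall of -3.43 ± 0.23 (adjusted p 0.0001). With DSS, WT mice had 11.1 and 11.9 CPM, against 91.6 and 78.9 CPM in untreated WT mice, a fall of -2.89 ± 0.22 (adjusted p 0.000157). The genotypes overlapped without DSS, and they did not differ past the test after it (-0.37 ± 0.24, adjusted p 0.3). Cyp2c40, Cyp2c65 and Cyp2c69, named after their values were seen, were lower still, at no more than 0.366 CPM in any DSS library. Each was called lower with DSS in both genotypes. No DSS library held more than 4 counts of any of these genes. They had enough counts for the test only through the untreated mice, so only a fall could be called. Cyp2c69 had no count in either ΔNFκB DSS library, against 2.13 and 3.99 CPM in ΔNFκB untreated mice, which makes it at least 19.7-fold lower when the empty group is set to 3 counts in all. The Cyp2c65 call in WT mice was lost without WT DSS replicate 1 or 2, without WT untreated replicate 2 and with the sex term (adjusted p 0.0623 to 0.0946), and its call in ΔNFκB mice was lost with the sex term (-3.35, adjusted p 0.0672).

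The promoters of Cyp2c40, Cyp2c65, Cyp2c68 and Cyp2c69 share a stretch of letters that few promoters hold. The nuclear receptor HNF4α is known to bind sequences like CAAAGTCCA, and a search of both strands of the 250 bases before each RefSeq start found these letters in 4 of the 62 tested members with a window (6.45%), against 0.451% of 27025 genes. The 4 were the Cyp2c genes below, shown because they fell together with DSS. Cyp2c55, which also fell, was not among the genes with a match. Each line gives bases 130 to 31 before the start on the gene's own strand, from RefSeq on GRCm38.p6, with the searched letters in capitals.
Cyp2c40 (chr19:39812845-39812944, minus strand): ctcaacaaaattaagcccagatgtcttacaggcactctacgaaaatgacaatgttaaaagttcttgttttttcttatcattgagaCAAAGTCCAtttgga
Cyp2c65 (chr19:39060876-39060975, plus strand): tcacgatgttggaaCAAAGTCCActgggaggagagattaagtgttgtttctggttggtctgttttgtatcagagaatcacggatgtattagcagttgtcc
Cyp2c68 (chr19:39741132-39741231, minus strand): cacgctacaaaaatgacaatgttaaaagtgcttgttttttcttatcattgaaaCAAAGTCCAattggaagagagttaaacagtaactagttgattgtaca
Cyp2c69 (chr19:39886800-39886899, minus strand): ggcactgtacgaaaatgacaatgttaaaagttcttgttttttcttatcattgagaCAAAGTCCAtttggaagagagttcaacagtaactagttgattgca
With gaps allowed, the Cyp2c68 and Cyp2c69 windows had 91 of 100 bases in common, so the 4 matches are not independent. Reads of these genes are also hard to separate. Of the 50-base words in their transcripts, 60.3% in Cyp2c40, 20.7% in Cyp2c65, 43.3% in Cyp2c68 and 54.3% in Cyp2c69 occur in another gene. A match describes the letters and does not show binding. Hnf4a itself had 641 and 714 CPM in ΔNFκB DSS mice and 643 and 809 in ΔNFκB untreated mice, against 387 and 287 in WT DSS mice and 746 and 821 in WT untreated mice. It fell in WT mice (-1.22 ± 0.18, adjusted p 0.00211) and did not pass the test in ΔNFκB mice (-0.10 ± 0.18, adjusted p 0.702), and these effects differed (1.12 ± 0.26, adjusted p 0.0251).

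Other P450 genes split by how far they fell. Cyp2f2, known for activating naphthalene in mouse lung, had 0.82 and 1.03 CPM in ΔNFκB DSS mice, against 20.03 and 19.6 CPM in ΔNFκB untreated mice (-4.41 ± 0.28, adjusted p 9.13e-05). In WT mice it had 1.26 and 0.641 CPM with DSS, against 13.8 and 14.8 CPM without (-3.91 ± 0.28, adjusted p 0.000123). After DSS the Cyp2f2 values of the genotypes overlapped, with a difference of -0.03 ± 0.37. Cyp2d34, by contrast, did not pass the test in ΔNFκB mice, with 180 and 148 CPM with DSS against 135 and 254 CPM without. It fell by 1.05 ± 0.29 in WT mice (adjusted p 0.0224), a call lost without WT DSS replicate 1, WT DSS replicate 2 or WT untreated replicate 2, or with the sex term (adjusted p 0.0939 to 0.125). Cyp3a13, the only member of the large Cyp3a drug-oxidising family that could be tested, had 52.9 and 47.0 CPM in ΔNFκB DSS mice and 98.7 and 143 in ΔNFκB untreated mice, against 26.2 and 23.3 in WT DSS mice and 74.4 and 106 in WT untreated mice. It fell by 1.27 ± 0.22 in ΔNFκB mice (adjusted p 0.00311, or -0.76 and 0.121 with the sex term) and by 1.87 ± 0.22 in WT mice (adjusted p 0.000835).

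Cyp4 enzymes hydroxylate fatty acids and eicosanoids, and this family held risers as well as fallers. Cyp4f18, which inactivates leukotriene B4 in mouse neutrophils, had 5.63 and 4.64 CPM in ΔNFκB DSS mice, against 2.92 and 2.20 CPM in ΔNFκB untreated mice. With DSS, WT mice had 17.5 and 15.9 CPM, against 1.84 and 3.49 CPM in untreated WT mice, so the WT DSS mice stood above every other library. The rise was 1.002 ± 0.32 in ΔNFκB mice (adjusted p 0.0423) and 2.63 ± 0.31 in WT mice (adjusted p 0.000746). The ΔNFκB call was lost without any 1 of the 2 ΔNFκB DSS, 2 ΔNFκB untreated or 2 WT DSS libraries (adjusted p 0.0681 to 0.173), with DESeq2 (0.0616) and with the replicate block (0.058), and the rise was 1.92 with the sex term. Neutrophil markers summed to 198 and 148 CPM in ΔNFκB DSS mice and 83.1 and 136 in ΔNFκB untreated mice. In WT mice they summed to 501 and 635 CPM with DSS and 99.2 and 233 without. Ly6g alone had 121.5 and 70.9 CPM in ΔNFκB DSS mice and 74.4 and 134 in ΔNFκB untreated mice. In WT mice Ly6g had 201 and 245 CPM with DSS and 96.7 and 230 without. The other 7 markers were each at most 3.23 CPM in any untreated library. Of the 8 markers, 7 rose with DSS in each genotype, and 7 were lower in ΔNFκB than in WT mice after DSS. Their part in the Cyp4f18 values was not tested. Cyp4f14, another leukotriene B4 hydroxylase, went the other way in WT mice, with 9.46 and 12.4 CPM with DSS against 25.5 and 86.7 CPM without (-2.36 ± 0.53, adjusted p 0.0109), a call lost without WT DSS replicate 1 or 2 (adjusted p 0.0536 and 0.073) and smaller without WT untreated replicate 2 (-1.19) and with the sex term (-1.22). In ΔNFκB mice Cyp4f14 had 34.5 and 50.1 CPM with DSS and 38.1 and 59.0 CPM without, and these groups overlapped. With the sex term Cyp4f14 rose in ΔNFκB mice by 1.56 ± 0.44 (adjusted p 0.044).

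**Figure D2:**
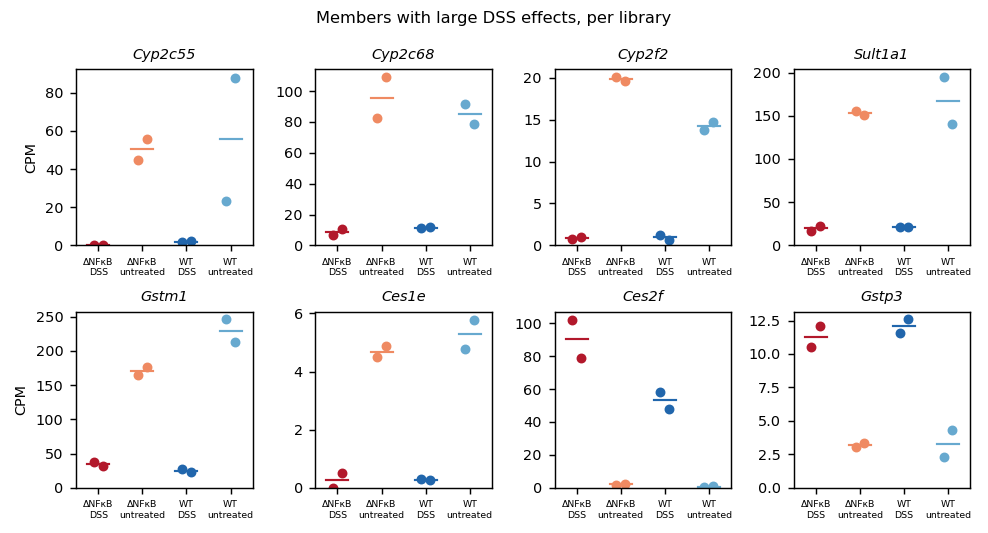
CPM on the vertical axis in each library (points) with the mean of each group of 2 mice (bars), for 8 members with large DSS effects. In 6 panels both DSS groups lie far below both untreated groups, as for Cyp2c68 at 6.86 to 11.9 CPM with DSS, while Ces2f and Gstp3 lie above them.

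Carboxylesterases hydrolyse esters and amides of drugs and also acylglycerols. Ces2f (chromosome 8, 104947356 to 104960047, plus strand, mm10) rose more than any other tested member, with 102 and 78.7 CPM in ΔNFκB DSS mice against 1.74 and 2.52 CPM in ΔNFκB untreated mice. In WT mice it had 57.9 and 48.2 CPM with DSS, against 0.240 and 1.14 CPM without. The rise was 5.40 ± 0.35 in ΔNFκB mice (adjusted p 9.16e-05) and 6.18 ± 0.40 in WT mice (adjusted p 7.37e-05), with no overlap in either, and all alternative fits kept both calls. Its neighbours in the Ces2 cluster did not rise past the test in either genotype, although with the sex term Ces2e rose in ΔNFκB mice (1.23 ± 0.35, adjusted p 0.0492). Ces2a, named after its values were seen, had 12.5 and 10.3 CPM in ΔNFκB DSS mice, against 48.1 and 56.3 CPM in ΔNFκB untreated mice (-2.19 ± 0.24, adjusted p 0.00054). In WT mice Ces2a had 8.88 and 8.70 CPM with DSS, against 45.8 and 75.6 CPM without (-2.79 ± 0.25, adjusted p 0.000233). Ces2c, which hydrolyses acylglycerols in intestine and liver, had 58.4 and 59.7 CPM in ΔNFκB DSS mice, against 113 and 201 CPM in ΔNFκB untreated mice (-1.41 ± 0.37, adjusted p 0.0189). That call was lost without ΔNFκB DSS replicate 1, ΔNFκB DSS replicate 2 or ΔNFκB untreated replicate 2 (adjusted p 0.0972 to 0.114, with -0.92 for the last of these), and the change was -0.29 with the sex term.

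**Figure D3:**
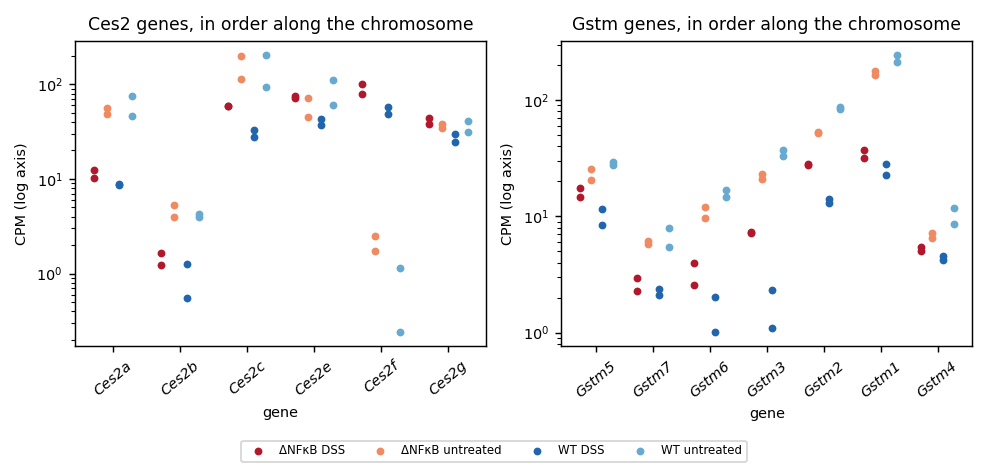
CPM per library on a log axis for the tested Ces2 genes (left) and Gstm genes (right), each in chromosome order, in the 4 groups of 2 mice. Ces2f is the only Ces2 gene with both DSS groups far above both untreated groups, at 48.2 to 102 CPM; the Gstm genes lie lowest in WT DSS mice, and Gstm7 has overlapping DSS groups.

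The Ces2f promoter is set beside that of Ces2a because the 2 genes lie in 1 cluster and moved in opposite directions. Ces2a is not the gene next to Ces2f, and Ces2b and Ces2c, which lie between them, also fell in both genotypes. The Ces2b call in ΔNFκB mice was lost with the sex term and without ΔNFκB DSS replicate 1 or ΔNFκB untreated replicate 2. Ces2e, closer to Ces2f than these, fell in WT mice (-1.09) and did not pass the test in ΔNFκB mice. Its WT call was lost with the sex term (-0.57, adjusted p 0.134) and without WT DSS replicate 1, WT DSS replicate 2 or WT untreated replicate 2. Each line gives the 250 bases before the RefSeq start on GRCm38.p6, plus strand, with the longest run common to both in capitals.
Ces2f (chr8:104947106-104947355, plus strand): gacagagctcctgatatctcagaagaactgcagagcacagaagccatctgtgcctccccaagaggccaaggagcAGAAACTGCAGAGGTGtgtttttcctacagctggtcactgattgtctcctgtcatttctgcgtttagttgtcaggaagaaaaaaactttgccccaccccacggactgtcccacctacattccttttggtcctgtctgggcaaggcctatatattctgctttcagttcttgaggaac
Ces2a (chr8:104733753-104734002, plus strand): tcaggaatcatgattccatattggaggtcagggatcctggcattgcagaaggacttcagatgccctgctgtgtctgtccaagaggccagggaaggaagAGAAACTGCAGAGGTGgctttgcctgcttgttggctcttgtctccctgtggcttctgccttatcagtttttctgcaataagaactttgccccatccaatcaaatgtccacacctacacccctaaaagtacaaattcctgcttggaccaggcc
With gaps allowed, 64.0% of the 250 bases were identical and the longest common run was 16 bases. Neither window holds CAAAGTCCA, the antioxidant response element letters TGACNNNGC or the dioxin response element core GCGTG on either strand. Over all tested members with a window, TGACNNNGC occurred in 8.07% and GCGTG in 25.8%, against 11.5% and 30.9% of all genes with one.

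Of the 4 tested Ces1 genes, Ces1d, Ces1e and Ces1f fell in both genotypes and Ces1g passed the test in neither. Ces1e had 0 and 0.515 CPM in ΔNFκB DSS mice, against 4.50 and 4.88 CPM in ΔNFκB untreated mice (-4.13 ± 0.66, adjusted p 0.00232, or -8.78 without ΔNFκB DSS replicate 2). In WT mice Ces1e had 0.290 and 0.275 CPM with DSS, against 4.79 and 5.77 CPM without (-4.18 ± 0.63, adjusted p 0.00212). Ces1d, a triacylglycerol hydrolase of liver and fat, had 1.84 and 1.34 CPM in ΔNFκB DSS mice and 19.95 and 20.4 in ΔNFκB untreated mice, against 3.96 and 6.5 in WT DSS mice and 17.3 and 17.7 in WT untreated mice. It fell by 3.66 ± 0.28 in ΔNFκB mice (adjusted p 0.000157) and by 1.74 ± 0.24 in WT mice (adjusted p 0.00152). Ces1f fell too, by 3.13 ± 0.58 in ΔNFκB mice (adjusted p 0.00452, or 0.0591 with the sex term) and by 2.86 ± 0.50 in WT mice (adjusted p 0.00396).

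Glutathione transferases differed within and between their classes. The tested mu-class genes were Gstm1 to Gstm7, in 1 cluster on chromosome 3, and all 7 fell in WT mice, whereas 5 fell in ΔNFκB mice and Gstm4 and Gstm5 did not pass the test. The Gstm7 call in ΔNFκB mice was lost without ΔNFκB DSS replicate 2 or ΔNFκB untreated replicate 2 (adjusted p 0.102 and 0.0529). Gstm1 had 37.3 and 31.5 CPM in ΔNFκB DSS mice, against 164 and 177 CPM in ΔNFκB untreated mice, and 28.1 and 22.5 CPM in WT DSS mice, against 246 and 213 CPM in WT untreated mice. Gstp3 of the pi class rose to 10.6 and 12.1 CPM in ΔNFκB DSS mice, against 3.08 and 3.34 CPM in ΔNFκB untreated mice (1.82 ± 0.29, adjusted p 0.00223). It rose to 11.6 and 12.6 CPM in WT DSS mice, against 2.32 and 4.29 CPM in WT untreated mice (1.86 ± 0.28, adjusted p 0.00214). The rises of Gstp3 differed by -0.04 ± 0.40, which did not pass the test. Its neighbours Gstp1 and Gstp2 did not pass the test in either genotype.

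Alpha-class Gsta1, a detoxifier of lipid peroxidation products, had 24.5 and 20.1 CPM in ΔNFκB DSS mice, against 7.26 and 6.59 CPM in ΔNFκB untreated mice (1.69 ± 0.30, adjusted p 0.00355, or 0.0557 with the sex term). With DSS, WT mice had 8.79 and 17.2 CPM, against 7.03 and 7.51 CPM in untreated WT mice (0.84 ± 0.29, adjusted p 0.055). Its counts are uncertain, because 90.5% of the 50-base words in its transcripts occur in another gene, mostly Gm3776. Gsto1, which had the highest level per length among glutathione transferases when averaged over all 8 libraries, had 135 and 149 CPM in ΔNFκB DSS mice, against 167 and 195 CPM in ΔNFκB untreated mice, and did not pass the test. In WT mice Gsto1 fell by 0.54 ± 0.13 (adjusted p 0.0138), a call lost without WT DSS replicate 2 or WT untreated replicate 2 (adjusted p 0.0515 to 0.1).

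Among sulfotransferases, Sult1a1 fell in both genotypes, with a difference of effects of 0.01 ± 0.26. It had 17.0 and 22.9 CPM in ΔNFκB DSS mice, against 156 and 151 CPM in ΔNFκB untreated mice (-2.94 ± 0.19, adjusted p 9.72e-05). In WT mice it had 21.7 and 21.5 CPM with DSS, against 195 and 140 CPM without (-2.95 ± 0.19, adjusted p 8.42e-05). Sult1e1, which sulfates estrogens and was named after its values were seen, had no count in any DSS library. It had 1.81 and 2.44 CPM in ΔNFκB untreated mice and 0 and 3.35 CPM in WT untreated mice, so the 3 libraries with a count were the 3 with Y-linked transcripts, and neither DSS effect passed the test.

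Ugt1a genes are spliced from alternative first exons to a common set of last exons, so their counts share most exon bases. Ugt1a7c, with 54.6% of its exon bases shared with other genes, was the most abundant of them per length over all libraries. It had 27.6 and 33.2 CPM in ΔNFκB DSS mice and 67.1 and 66.9 in ΔNFκB untreated mice, against 23.4 and 22.1 in WT DSS mice and 94.3 and 97.5 in WT untreated mice. It fell in both genotypes, by 1.14 ± 0.12 in ΔNFκB mice (adjusted p 0.000425) and by 2.08 ± 0.12 in WT mice (adjusted p 4.8e-05). The other 5 tested Ugt1a genes stayed within -0.20 to 0.77 in WT mice, and none of them passed the test there. In ΔNFκB mice Ugt1a1, which glucuronidates bilirubin, fell by 1.40 ± 0.35 (adjusted p 0.0154), a call lost with DESeq2, with the sex term and without ΔNFκB DSS replicate 1 or ΔNFκB untreated replicate 1 (adjusted p 0.0732 to 0.201).

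After DSS the genotypes differed in 19 of the 75 tested members. In ΔNFκB compared with WT mice 13 were higher and 6 lower, where 8.32% and 11.7% of all genes tested were; the members' median difference was 0.05, against 0.03 over all genes. The 13 were spread over carboxylesterases (1), Cyp2 (2), Cyp3 (1), Cyp4 (1), glutathione transferases (4), sulfotransferases (1), Ugt1 (1) and both Ugt2 genes. Without any 1 DSS library fewer members were called higher, and without either ΔNFκB DSS library or WT DSS replicate 2 fewer were called lower. In each of these fits fewer of all genes were called in that direction too. Without ribosomal and mitochondrial RNA 8 members were higher, as were 1141 of all 17400 genes tested, against 1457 of 17522 with it.

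The DSS effects themselves differed in 16 members. The change was higher in ΔNFκB than in WT mice for 13 and lower for 3, where 8.63% and 9.07% of all genes were; the median was 0.25, against -0.05 over all genes. Glutathione transferases made up 7 of the 13, namely Gsta3, Gstm1, Gstm2, Gstm3, Gstm5, Gstm6 and Gstt2, and the others were Cyp2d26, Cyp2j6, Sult2b1, Ugt1a7c, Ugt2b34 and Ugt2b35. The lower ones were Ces1d, Cyp2j9 and Cyp4f18. The 13 became fewer without either ΔNFκB DSS library, ΔNFκB untreated replicate 1, WT DSS replicate 2 or WT untreated replicate 2. The 3 became fewer without any 1 ΔNFκB library or without WT DSS replicate 2. In each of these fits fewer of all genes were called in that direction too. Only Gstm2, Gstm3, Sult2b1 and Ugt2b35 passed the test under every alternative tried, both for this difference and for the genotypes after DSS.

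**Figure D4:**
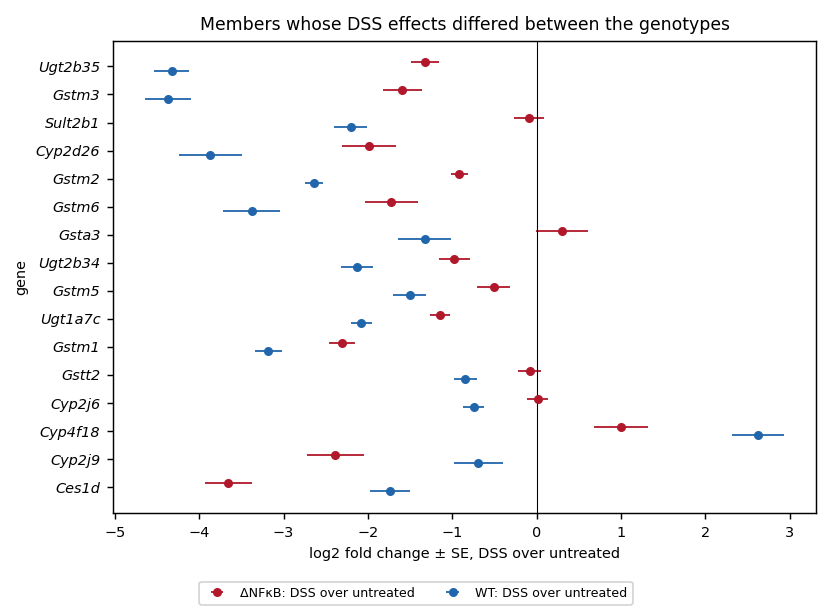
Log2 fold change ± SE of DSS over untreated mice (horizontal axis) in ΔNFκB (red) and WT (blue) mice for the 16 members whose DSS effects differed, ordered by that difference. In the upper 13 genes the ΔNFκB point lies right of the WT point, most widely for Ugt2b35 at -1.32 and -4.33, and in the lower 3 it lies left of it.

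Sult2b1 (chromosome 7, 45729983 to 45784669, minus strand, mm10), which sulfates cholesterol and hydroxysteroids, was low in 1 group only, the WT DSS mice. It had 19.6 and 17.2 CPM in ΔNFκB DSS mice, against 18.1 and 21.2 CPM in ΔNFκB untreated mice (-0.09 ± 0.18, adjusted p 0.717). With DSS, WT mice had 4.54 and 4.49 CPM, against 18.3 and 23.4 CPM in untreated WT mice (-2.21 ± 0.19, adjusted p 0.00023). The effects differed by 2.11 ± 0.26 (adjusted p 0.00602), and after DSS the genotypes differed by 2.02 ± 0.20 (adjusted p 0.00177).

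Ugt2b35 (chromosome 5, 87000860 to 87013275, plus strand), a glucuronosyltransferase of the family that handles steroids and bile acids, had 9.53 and 8.55 CPM in ΔNFκB DSS mice, against 20.9 and 24.4 CPM in ΔNFκB untreated mice. In WT mice it had 1.74 and 1.28 CPM with DSS, against 30.9 and 30.05 CPM without. It fell in both genotypes and further in WT mice, with a difference of 3.00 ± 0.27 (adjusted p 0.00284). Its far more abundant neighbour Ugt2b34 had 154 and 199 CPM in ΔNFκB DSS mice and 342 and 352 in ΔNFκB untreated mice, against 101 and 82.6 in WT DSS mice and 350 and 456 in WT untreated mice. Its effects differed by 1.16 ± 0.25 (adjusted p 0.0223), a call lost without ΔNFκB DSS replicate 2, ΔNFκB untreated replicate 1 or WT DSS replicate 2 (adjusted p 0.0712 to 0.0895).

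Gstm2 (chromosome 3, 107981702 to 107986453, minus strand) had 28.3 and 27.6 CPM in ΔNFκB DSS mice, against 53.5 and 52.0 CPM in ΔNFκB untreated mice. With DSS, WT mice had 13.1 and 14.1 CPM, against 86.7 and 83.3 CPM in untreated WT mice. The mice of each group lay close together and no groups overlapped; the effects differed by 1.73 ± 0.15 (adjusted p 0.00268). Gstm3 beside it (107963696 to 107969283, minus strand) had 7.38 and 7.21 CPM in ΔNFκB DSS mice and 23.0 and 21.1 in ΔNFκB untreated mice, against 2.32 and 1.10 in WT DSS mice and 37.4 and 33.3 in WT untreated mice. Its effects differed by 2.78 ± 0.36 (adjusted p 0.00651), with 28.8% of its 50-base words shared with other genes.

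Of the members lower in ΔNFκB than in WT mice after DSS, the Ces1d and Cyp4f18 values above were apart by -1.71 ± 0.30 (adjusted p 0.00799) and -1.70 ± 0.30 (adjusted p 0.00818). Both calls were lost without ΔNFκB DSS replicate 2, where they were -1.53 and -1.59 (adjusted p 0.0824 and 0.0819). Ces1g, Cyp2j9, Gstk1 and Sult4a1 were lower too, by 1.76 ± 0.52, 1.48 ± 0.36, 0.68 ± 0.15 and 1.41 ± 0.35 on the log2 scale (adjusted p 0.0467, 0.0247, 0.0184 and 0.028). Each of these 4 calls was lost without 1 or the other ΔNFκB DSS library and without WT DSS replicate 2; those of Cyp2j9, Gstk1 and Sult4a1 were also lost without WT DSS replicate 1, and that of Ces1g without either WT untreated library. The adjusted p in these cases were 0.0501 to 0.298, and Ces1g was lower by 0.98 without WT DSS replicate 2.

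Markers of the epithelium moved with genotype after DSS. All 10 goblet cell markers were higher in ΔNFκB than in WT mice after DSS, and 9 of them had DSS effects that differed in that direction. Their summed level was 10989 and 9087 CPM in ΔNFκB DSS mice and 16471 and 18043 in ΔNFκB untreated mice, against 3164 and 3978 in WT DSS mice and 19533 and 27369 in WT untreated mice. Of 12 general epithelial markers 4 were higher and 0 lower, and of 12 absorptive colonocyte markers 4 were higher and 2 lower. Fibroblast markers were lower in 8 of 8 cases. The part of these cell types in the 16 members' values was not tested.

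Without DSS 1 member passed the test between the genotypes. By Y-linked transcripts this comparison sets 2 male ΔNFκB mice against 1 male and 1 female WT mouse. Few calls here do not show that the genotypes were alike. Of the 75 tested members 0 were higher in ΔNFκB mice, where 0.0399% of all genes were, and 1 was lower, where 0.348% were. An unadjusted p under 0.05 was reached by 16 of the 75 members. The share of all genes under it was not computed, so this count does not show a difference between the genotypes. The median difference was -0.17 against 0.03 over all genes. DESeq2 called 1 higher and 1 lower, where 42 and 222 of all 17522 genes tested were. The lower member was Gstm2, at 53.5 and 52.0 CPM in ΔNFκB untreated mice against 86.7 and 83.3 CPM in WT untreated mice (-0.69 ± 0.10, adjusted p 0.041). That call was lost with any 1 of the 8 libraries left out (adjusted p 0.055 to 0.243), and with the sex term (0.0572).

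Other genes of the pathway, from lists of regulators, enzymes and transporters, were read beside the members. Among 20 transcription factors and regulators of them, 9 fell and 3 rose with DSS in ΔNFκB mice, and 9 fell and 2 rose in WT mice. Vdr, the vitamin D receptor, had 141 and 175 CPM in ΔNFκB DSS mice and 349 and 424 in ΔNFκB untreated mice, against 81.6 and 85.2 in WT DSS mice and 296 and 300 in WT untreated mice, and it fell in both. Ahr, the aryl hydrocarbon receptor, did not pass the test in either genotype.

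Other xenobiotic enzymes fell too, with 14 of 26 lower and 1 higher in ΔNFκB mice and 18 lower and 0 higher in WT mice. Akr1c14, which reduces steroids, fell by 0.84 ± 0.14 in ΔNFκB mice (adjusted p 0.00245) and by 1.97 ± 0.14 in WT mice (adjusted p 0.000123), and Fmo5, a flavin monooxygenase, by 2.99 ± 0.21 (adjusted p 0.000119) and by 1.62 ± 0.19 (adjusted p 0.000809). These effects differed in opposite directions, by 1.13 ± 0.19 for Akr1c14 and -1.37 ± 0.28 for Fmo5. Steroid enzymes outside the set fell in 7 of 15 cases in ΔNFκB mice and 8 of 15 in WT mice, with 1 riser in each. Hsd3b3, a 3 beta-hydroxysteroid dehydrogenase, had 3.89 and 2.37 CPM in ΔNFκB DSS mice against 59.1 and 57.6 in ΔNFκB untreated mice (-4.21 ± 0.21, adjusted p 6.11e-05). In WT mice Hsd3b3 had 5.79 and 4.67 CPM with DSS, against 65.9 and 66.1 CPM without (-3.66 ± 0.19, adjusted p 3.1e-05). Hsd3b2 of the same enzyme class fell by 5.44 ± 0.41 in ΔNFκB mice (adjusted p 0.00015) and by 3.39 ± 0.31 in WT mice (adjusted p 0.000243).

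The NRF2 target list, genes switched on by oxidative and electrophilic stress, moved the other way in ΔNFκB mice, with 8 of 12 higher and 0 lower, while 4 rose and 3 fell in WT mice. Gsr, which regenerates reduced glutathione, had 278 and 284 CPM in ΔNFκB DSS mice and 97.9 and 92.0 in ΔNFκB untreated mice, against 185 and 215 in WT DSS mice and 119 and 119 in WT untreated mice, and its effects differed by 0.81 ± 0.16 (adjusted p 0.015). Hmox1, which degrades heme, had 8.20 and 9.27 CPM in ΔNFκB DSS mice and 5.05 and 3.58 in ΔNFκB untreated mice, against 35.4 and 29.1 in WT DSS mice and 3.43 and 4.02 in WT untreated mice. Its effects differed in the opposite direction, by -2.09 ± 0.31 (adjusted p 0.00865). Of 14 drug and conjugate transporters 7 fell and 3 rose in ΔNFκB mice, and 5 fell and 4 rose in WT mice. Abcb1a, the P-glycoprotein drug pump, had 64.5 and 60.1 CPM in ΔNFκB DSS mice and 386 and 501 in ΔNFκB untreated mice, against 40.3 and 70.4 in WT DSS mice and 431 and 672 in WT untreated mice. It fell by 2.83 ± 0.30 in ΔNFκB mice (adjusted p 0.00049) and by 3.32 ± 0.31 in WT mice (adjusted p 0.000293). Slco2b1, an uptake carrier for organic anions, fell in ΔNFκB mice (-2.20 ± 0.23, adjusted p 0.000425) and did not pass the test in WT mice (-0.58 ± 0.21, adjusted p 0.0572), and these effects differed (-1.61 ± 0.31, adjusted p 0.0147).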

How the data were processed

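Per the submitters' processing notes, reads were handled with HISAT2 2.1, SAMtools 1.8, featureCounts and Subread 1.6.2 on mm10; not given in the sources used here are the annotation release, the strand setting and how multi-mapping reads were treated. The authors deposited estimated counts per gene, not normalized: 18.8% of values above 0 differ from a whole number (no tolerance), where whole counts had been assumed, so values were rounded. The 115 symbols on several lines were summed.

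After filterByExpr and TMM scaling (factors 0.882 to 1.15), the 4 group means were fitted in edgeR 4.0.16 (R 4.3.3, limma 3.58.1) by quasi-likelihood, with 4 residual degrees of freedom and a biological coefficient of variation of 17.1%. Calls use Benjamini-Hochberg adjusted p below 0.05 over 17522 genes. Each SE was taken as |log2 fold change|/√F. With 2 mice a group, the smallest exact permutation p is 0.333. The mice of a group are separate samples in the labels. The p-values rest on the spread between mice within groups, pooled over the 4 groups and moderated across genes. That spread includes the difference between the male and the female WT untreated mouse. The fit was tested on simulated data.

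Members and lists were chosen with earlier results of these data known. Members named are those with the largest changes past the threshold (mean log2 CPM above 1, no overlap), the smallest p for the difference of DSS effects, the most abundant per length in each family over all libraries, and Cyp1a1 and Cyp1b1; of each related list, the 2 with the smallest p, of which 1 gene is not reported here. Hnf4a, Ahr, Cyp2c40, Cyp2c65, Cyp2c69, Ces2a, Gstm1, Cyp2e1, Ces2e, Ugt1a1 and Sult1e1, and members listed only by a count, were named after their values were seen. Positions come from GENCODE M21 (GRCm38, the same assembly as mm10) and promoters from RefSeq. Folds against groups at 0 use a floor of 3 counts, 0.201 to 0.309 CPM in 1 library, which covers counting error only. Alternatives were RLE factors, DESeq2 1.42.0, no count filter, a replicate block, a sex term, the removal of ribosomal and mitochondrial genes, and of each library in turn, its group then holding 1 mouse assumed to vary like the others. Groups of 2 allowed no test for outlying samples.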

Additional observations from a re-analysis of the deposited data

Results flagged for a closer look

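The DSS effects of 16 members differed between the genotypes by the test of the difference itself (ΔNFκB minus WT, log2). The difference was 3.00 for Ugt2b35, 2.78 for Gstm3, 2.11 for Sult2b1, 1.88 for Cyp2d26, 1.73 for Gstm2, 1.65 for Gstm6 and 1.62 for Gsta3. It was 1.16 for Ugt2b34, 0.998 for Gstm5, 0.94 for Ugt1a7c, 0.87 for Gstm1, 0.76 for Gstt2 and 0.76 for Cyp2j6. It was -1.63 for Cyp4f18, -1.69 for Cyp2j9 and -1.92 for Ces1d. Adjusted p ran from 0.00268 for Gstm2 to 0.0432 for Gstm6.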

How the results depend on the processing

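Fits were repeated under 15 alternatives, 1 of them (a crossed pairing) chosen after the data were seen. Every call held for 26 of 46 members with DSS in ΔNFκB mice, 41 of 50 in WT mice, 4 of 19 for genotype after DSS, 4 of 16 for the difference of DSS effects and 0 of 1 for genotype without DSS. For the named members, 813 values were recomputed: 705 kept their direction and side of the threshold, 101 fell short of it, 3 newly passed it and 4 changed sign. With 1 library left out, members higher with DSS in ΔNFκB mice numbered 3 to 6, members higher and lower for genotype after DSS 4 to 13 and 0 to 8, members lower without DSS 0 to 1, and members higher and lower for the difference 4 to 17 and 0 to 4. The sex term left 25 members lower with DSS in ΔNFκB mice, against 40. Among all 17522 genes tested it left 1865 lower there, against 3367. Leaving out ribosomal and mitochondrial RNA left 8 members higher for genotype after DSS, against 13, with 1141 of all genes against 1457. DESeq2 called 1 member higher without DSS, against 0, with 42 of all genes against 7. No filter called 2 members lower without DSS and 5 lower for the difference, against 1 and 3. Among all genes it called 258 and 1996 of 30454, against 61 and 1589 of 17522. The sign changed for Cyp1b1 with DSS, which was -0.85 to 6.43 in WT mice with 1 library left out (1.36 with all) and 1.16 in ΔNFκB mice with the sex term (-4.82 without), and for Cyp2d34 in ΔNFκB mice, which was 0.26 with the sex term and -0.61 to 0.30 with 1 library left out (-0.25 with all). Over all genes, calls for genotype after DSS and for the difference also became fewer without any 1 DSS library. The causes were not tested, beyond fewer samples when a library is left out.

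Replicate numbers do not pair the mice: deviations of replicate 1 correlated at -0.126 to 0.244 between groups. With the replicate block 1 member was lower for the difference and 0 without DSS, against 3 and 1. With the crossed pairing of the untreated libraries 0 were lower without DSS. A value of 3 counts was 0.201 to 0.309 CPM, depending on the library.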

Other observations

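Cyp2e1, the ethanol-oxidising P450 that liver and fat express strongly, was high in 1 library. It had 0.102 and 0 CPM in ΔNFκB DSS mice, 1.26 and 0.651 in ΔNFκB untreated mice, 1.83 and 4.21 in WT DSS mice and 1.2 and 24.9 in WT untreated mice. No comparison of Cyp2e1 passed the test in the fit without a sex term. With it, Cyp2e1 was lower in ΔNFκB than in WT mice after DSS (-5.62, adjusted p 0.00598) and without DSS (-4.68, adjusted p 0.0162). The high library, WT untreated replicate 2, was the only WT library with Y-linked transcripts. The sex term therefore cannot be told apart from that library's high value, and the 2 calls with it do not show an effect of genotype. Adipocyte markers were highest in the same library: they summed to 15.8 and 17.0 CPM in ΔNFκB DSS mice, 34.1 and 32.9 in ΔNFκB untreated mice, 44.4 and 45.7 in WT DSS mice and 47.8 and 143 in WT untreated mice. Hepatocyte markers summed to 78.6 and 54.0 CPM in ΔNFκB DSS mice, 69.4 and 70.8 in ΔNFκB untreated mice, 57.8 and 78.6 in WT DSS mice and 95.5 and 111 in WT untreated mice, so they too were highest in that library. Ttr, Tat and Cps1 made up most of these sums, and Alb, Apoa2, Serpina1a, Fgb and Ahsg were each at most 2.41 CPM. The part of either cell type in the Cyp2e1 values was not tested.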
